A study of Mus musculus with 9 samples.

Results

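The SR splicing factors are a family of RNA-binding proteins that carry a stretch rich in arginine and serine. The 10 genes described here (Srsf1, Srsf2, Srsf3, Srsf4, Srsf5, Srsf6, Srsf7, Srsf9, Srsf10 and Srsf11) were picked out by gene symbol from 56246 genes in a table of RNA sequencing reads. The gene identifiers of that table were matched to symbols in the GENCODE M21 annotation of the mouse genome (GRCm38). The libraries were made from prefrontal cortex (PFC) of male mice on a C57BL/6 background, given in the study's methods as 8 to 12 weeks old. There were 9 libraries in 3 groups of 3: WT mice (replicates 1, 3 and 6), Rag1-/- mice given vehicle (replicates 1, 2 and 3), and Rag1-/- mice given WT EVs (replicates 2, 3 and 5). The WT EVs were extracellular vesicles isolated from WT blood and injected intravenously, and the vehicle was medium. Rag1 encodes part of the recombinase that assembles antigen receptor genes, and mice without it lack mature T and B cells in every tissue. For WT the treatment label reads None, although the sample titles carry the medium mark. The labels do not say that a library is a single mouse, and it was treated as such, so p-values measure the spread between these libraries only. They name no batch.

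SR proteins bind short exonic sequences through RNA recognition motifs and recruit the splicing machinery to nearby splice sites through their arginine-serine (RS) stretch. SR protein kinases phosphorylate the serines of this stretch, and the importer transportin-SR carries the phosphorylated proteins into the nucleus. Many SR genes limit their own level by making transcripts with a retained intron or a poison exon, which are held in the nucleus or degraded. In brain, SR proteins take part in the choice of neuronal exons, among them very short microexons.

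The RS stretch is visible in the coding sequences of the family. In the longest complete coding transcript of each gene, adjacent arginine and serine codons, in either order, numbered from 9 in Srsf9 to 106 in Srsf4. Per 100 codons this was 4.05 pairs in Srsf9, 8.02 in Srsf11, 11.9 in Srsf1 and 23.5 in Srsf2, the highest. In 8 of the 10 genes at least 88.9% of the pairs lay in the second part of the coding sequence, the exceptions being Srsf4 with 65.1% and Srsf10 with 71.4%. The longest uninterrupted runs of alternating arginine and serine codons are shown for 6 genes to let the long runs of Srsf1 and Srsf2 be set beside the short ones of Srsf9, Srsf10 and Srsf11, with arginine codons in capitals and serine codons in lower case. They are written on the coding strand, from GENCODE M21 on GRCm38, at chr11:88049469-88049516 (Srsf1, plus strand), chr11:116852265-116852315 (Srsf2, minus), chr12:80949802-80949834 (Srsf5, plus), chr5:115332630-115332644 (Srsf9, plus), chr4:135863117-135863134 (Srsf10, plus) and chr3:158017842-158017865 (Srsf11, minus). All 6 lie within 1 coding exon.
Srsf1: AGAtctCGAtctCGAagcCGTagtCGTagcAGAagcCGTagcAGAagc
Srsf2: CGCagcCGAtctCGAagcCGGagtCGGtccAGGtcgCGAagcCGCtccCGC
Srsf5: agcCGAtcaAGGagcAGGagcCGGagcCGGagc
Srsf9: tcaCGGtcgCGGtct
Srsf10: CGCtctCGAagcCGGagt
Srsf11: tcgAGAtcaAGAtctCGCtcgAGG
The run of Srsf2 held 17 codons, that of Srsf1 held 16, that of Srsf5 held 11, that of Srsf11 held 8, that of Srsf10 held 6 and that of Srsf9 held 5.

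The genes also differ in how much of their annotated exon length lies in transcripts that keep an intron. Such bases, found in retained-intron transcripts and in no other transcript of the gene, made up 59.2% of the exonic bases of Srsf3, 58% of Srsf11, 37.9% of Srsf5, 29.5% of Srsf2, 21.1% of Srsf6, 20.1% of Srsf4, 14.3% of Srsf7 and 2.66% of Srsf1. Srsf9 and Srsf10 had none. Reads counted for a gene such as Srsf11 can thus come from spliced RNA or from RNA that still holds an intron, and the table does not separate them. The exon-intron boundary at the start of the longest such stretch is shown for Srsf11, Srsf3 and Srsf5, with 20 coding exon bases in capitals and 40 intron bases in lower case. The windows are chr3:158026685-158026744 (Srsf11, minus strand), chr17:29040794-29040853 (Srsf3, plus) and chr12:80947846-80947905 (Srsf5, plus) on GRCm38.
Srsf11: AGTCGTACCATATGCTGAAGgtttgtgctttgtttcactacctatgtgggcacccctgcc
Srsf3: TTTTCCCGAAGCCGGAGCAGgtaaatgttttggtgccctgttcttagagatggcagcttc
Srsf5: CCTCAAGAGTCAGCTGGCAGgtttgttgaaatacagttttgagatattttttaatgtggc
Each intron part opens with the usual GT of a donor site and continues as annotated exon for 1988 bases in Srsf11, 393 in Srsf3 and 263 in Srsf5.

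Gene reads numbered 32 to 41.2 M per library. The share of reads that fell outside annotated exons, as a percent of these reads and gene reads together, was 11.3, 8.46 and 31.1% in WT replicates 1, 3 and 6. It was 7.08, 7.2 and 6.82% in vehicle replicates 1, 2 and 3, and 8.62, 8.06 and 11.7% in EV replicates 2, 3 and 5. WT replicate 6 stood apart, with 21389 genes at 10 or more reads against 16326 to 17662 in the others, so values without it are given beside the results that it changed most. Summed neuron markers ran from 3230 to 4380 CPM in WT, 4650 to 4900 in vehicle and 3680 to 4050 in EV libraries, with all 8 markers present in each group. Summed astrocyte markers ran from 10500 to 12400, 7120 to 8050 and 9900 to 10200 CPM, so the vehicle libraries had the highest neuron and lowest astrocyte sums. Meningeal markers were at 224 to 431, 437 to 556 and 692 to 1200 CPM and choroid plexus markers at no more than 3.84 CPM. The part of these differences in the results below was not tested. Rag1 itself had 1.09, 0.842 and 0.232 CPM in WT and 6.26 to 7.82 CPM in the Rag1-/- libraries. Reads summed over the gene do not show whether the deleted part was transcribed, so they do not check the genotype.

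All values of the SR genes are counts per M gene reads after TMM scaling (CPM), and the 3 comparisons are edgeR quasi-likelihood tests with Benjamini-Hochberg adjustment over 17948 genes, called at an adjusted p under 0.05. The SR genes together had 11814 to 17075 reads per library. Srsf1 was listed at 0 reads in all 9 libraries, so 9 of the 10 genes passed the filter on low counts and entered the tests. Srsf1, the first SR protein described and a regulator of splice site choice, lies at chr11:88047373-88053755. Of the 149 splicing-related genes listed for this report only Srsf1 and the long non-coding RNA Rian were listed at 0 throughout. The listed genes Hnrnpu, Snrpf, Celf1 and U2af1l4 had reads but did not pass the filter on low counts. No level or fold is given for Srsf1, and the cause of the zeros and of these low counts was not tested.

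**Figure D1:**
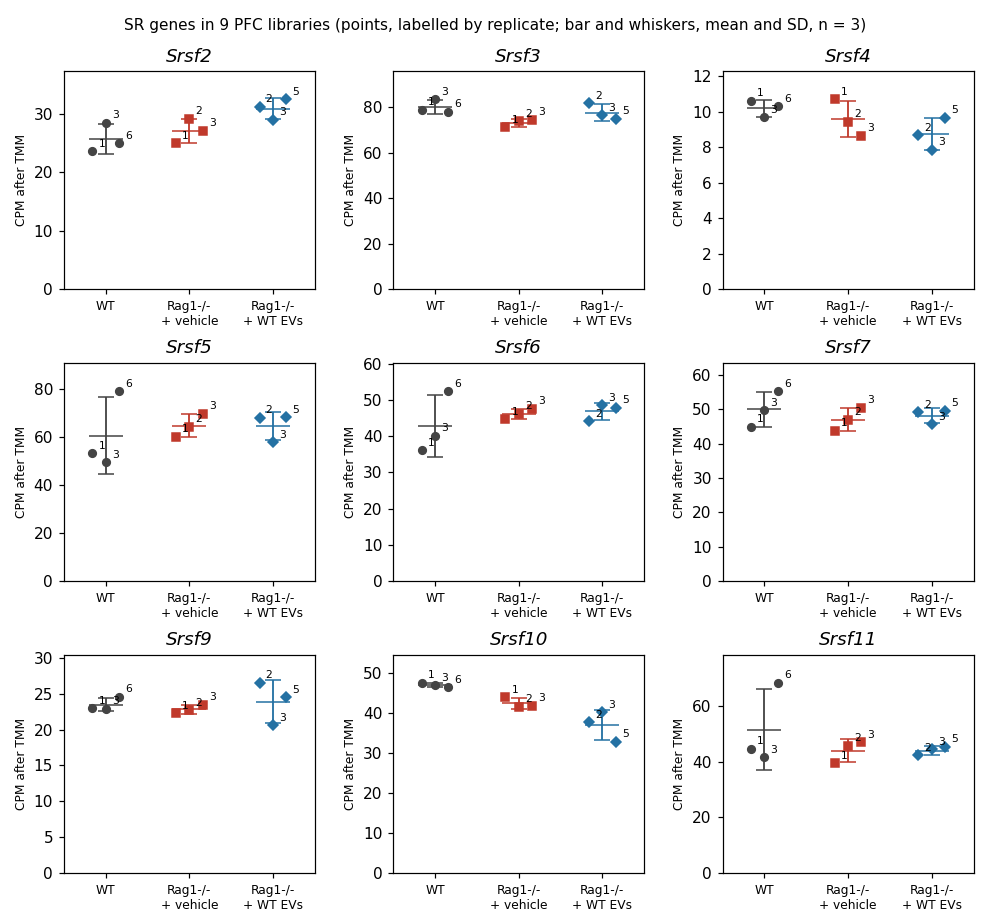
CPM of the 9 SR genes with reads (y axis, from 0) in the WT, Rag1-/- + vehicle and Rag1-/- + WT EV libraries. Points are libraries labelled by replicate, and the bar and whiskers are the mean and SD of 3. Srsf10 steps down from 46.4 to 47.5 CPM in WT to 32.8 to 40.2 CPM in EV libraries, and WT replicate 6 is the highest point for Srsf5, Srsf6, Srsf7 and Srsf11.

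Per exonic length, Srsf5 had the highest level and Srsf4 the lowest of the 9 genes with reads. Bases shared with other genes, 43% for Srsf4 and 25.3% for Srsf2, were kept in the length. Reads there can be ambiguous and go uncounted, so the levels and places of these 2 genes are uncertain and may be too low. Levels in reads per kilobase of annotated exon and per M gene reads (RPKM), as mean and SD over the 9 libraries, were 15.9 ± 2.29 for Srsf5, 14.2 ± 1 for Srsf9, 13.6 ± 0.993 for Srsf7, 9.74 ± 0.499 for Srsf3, 9.43 ± 1.01 for Srsf2 and 9.41 ± 1 for Srsf6. Srsf10 followed with 6.01 ± 0.687, Srsf11 with 5.51 ± 1.01 and Srsf4 with 2.67 ± 0.271 RPKM. Srsf5, Srsf9 and Srsf7 did not keep 1 order: Srsf5 was above Srsf9 in 7 of 9 libraries, and Srsf9 above Srsf7 in 5. Srsf3, Srsf2 and Srsf6 likewise changed places, each pair of neighbours keeping its order in 5 of 9 libraries. Srsf7 was above Srsf3, Srsf6 above Srsf10, and Srsf11 above Srsf4 in all 9, and Srsf10 was above Srsf11 in 7. Length defined by the exons of protein-coding transcripts alone moved Srsf3 to 29.4 RPKM and the second place, and Srsf11 to 14 RPKM and the fifth place. The reads were the same in both, so the order of Srsf3 and Srsf11 depended on how much of the annotated intron sequence was counted as exon.

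**Figure D2:**
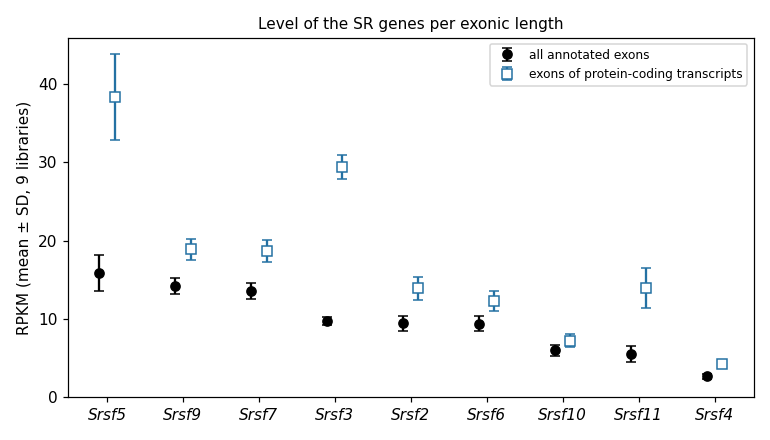
Level of the SR genes in RPKM (y axis, mean and SD over 9 libraries), with length taken from all annotated exons (filled circles) or from exons of protein-coding transcripts (open squares). Srsf3 moves from 9.74 to 29.4 RPKM and Srsf11 from 5.51 to 14 RPKM, while Srsf10 moves only from 6.01 to 7.21. Bases shared with other genes are kept in both lengths, so the places of Srsf4 and Srsf2 are uncertain.

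The first comparison, Rag1-/- + vehicle against WT, asked how PFC transcripts differ in mice without mature T and B cells. None of the 9 SR genes tested was called, beside 16% of all genes, and none had an unadjusted p under 0.05. DESeq2 called none of the 9 either. Their log2 fold changes lay between -0.23 and 0.1 with a median of -0.09, beside -0.03 over all genes. In bulk tissue, fewer cells of a type and less RNA per cell cannot be told apart.

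Srsf3 and Srsf10 were the 2 of 9 genes whose groups did not overlap in this comparison, beside 38.1% of all genes. Srsf3, the smallest SR protein, also links splicing to export of the mRNA. It had 78.8, 83.5 and 78 CPM in WT replicates 1, 3 and 6 and 71.2, 73.8 and 74.4 CPM in vehicle replicates 1, 2 and 3. All vehicle libraries lay below all WT libraries, by a log2 fold change of -0.13 (SE 0.0746, adjusted p = 0.227). Srsf10, which represses splicing when it is dephosphorylated, had 47.5, 46.9 and 46.4 CPM in WT and 43.9, 41.5 and 41.8 CPM in vehicle libraries. Its log2 fold change was -0.15 (SE 0.0873, adjusted p = 0.248). Srsf3 and Srsf10 stood at -0.15 each without WT replicate 6.

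Srsf5, Srsf6 and Srsf11 were the genes whose values in this comparison turned on WT replicate 6. Srsf5, an SR protein known from insulin-regulated splicing, had 53.1 and 49.4 CPM in WT replicates 1 and 3. It had 79 CPM in WT replicate 6, and the vehicle libraries lay between at 60, 64.2 and 69.5 CPM. Srsf6, a regulator of exon inclusion in the tau transcript, had 36.1, 40.1 and 52.4 CPM in WT and 44.6, 46.1 and 47.6 CPM in vehicle libraries. For both genes WT replicates 1 and 3 were below, and replicate 6 above, every vehicle library. Srsf5 had a log2 fold change of 0.09 (SE 0.157, adjusted p = 0.699) with all libraries and 0.33 (SE 0.0986, adjusted p = 0.0536) without WT replicate 6. Srsf6 had 0.1 (SE 0.123, adjusted p = 0.569) and 0.27 (SE 0.0875, adjusted p = 0.0682). Neither passed the threshold in either fit. Srsf11, which acts with the neuronal factor Srrm4 on microexons in mouse neural cells, had 44.7, 41.7 and 68.4 CPM in WT and 39.5, 45.7 and 47 CPM in vehicle libraries. Its log2 fold change was -0.23 (SE 0.161, adjusted p = 0.329) and became 0.03 (adjusted p = 0.874) without WT replicate 6.

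The other genes differed little. Srsf2, a nuclear speckle protein that promotes exon inclusion, had a log2 fold change of 0.08 (adjusted p = 0.619). Srsf4, whose RS stretch is long, had -0.09 (adjusted p = 0.628), and Srsf7, an SR protein with a zinc knuckle that also serves mRNA export, had -0.09 (adjusted p = 0.545). Srsf9, whose RS stretch is short, had -0.04 (adjusted p = 0.795). Srsf7 had 44.9, 49.7 and 55.3 CPM in WT, 43.7, 46.9 and 50.5 CPM in vehicle and 49.1, 45.6 and 49.6 CPM in EV libraries. Srsf9 had 23, 22.9 and 24.6 CPM in WT, 22.3, 22.7 and 23.5 CPM in vehicle and 26.5, 20.6 and 24.5 CPM in EV libraries. The groups overlapped for both genes. About 25.3% of the exonic bases of Srsf2 overlap Mettl23 or Mfsd11 and 43% of those of Srsf4 overlap Gm12992, so the counts of both are uncertain there.

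The second comparison, Rag1-/- + WT EVs against Rag1-/- + vehicle, asked what the vesicles change in the same genotype. None of the 9 SR genes was called by edgeR or by DESeq2, beside 3.42% of all genes with edgeR, and 1 of them, Srsf10, had an unadjusted p under 0.05. Srsf10 had 37.7, 40.2 and 32.8 CPM in EV replicates 2, 3 and 5, all below the vehicle libraries at 41.5 to 43.9 CPM. The log2 fold change was -0.2 (SE 0.0877, edgeR adjusted p = 0.198) and was -0.15 (adjusted p = 0.485) without EV replicate 5, the lowest of the 9 libraries. Srsf3 also did not overlap, with 81.7, 76.4 and 74.9 CPM in EV libraries, all above the vehicle libraries, at 0.09 (SE 0.0747, adjusted p = 0.515). These 2 of 9 genes stand beside 37% of all genes that did not overlap. Srsf2 had 31.2, 29 and 32.5 CPM in EV and 25, 29.2 and 27.1 CPM in vehicle libraries, with overlap in 1 library of each group, at 0.19 (SE 0.1, adjusted p = 0.289). The log2 fold changes of Srsf5, Srsf6, Srsf7, Srsf9 and Srsf11 lay between 0 and 0.06, and that of Srsf4 was -0.14 (adjusted p = 0.528). The median of the 9 was 0.02, beside 0.04 over all genes.

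The third comparison, Rag1-/- + WT EVs against WT, shares its libraries with the other 2, so its values are set beside theirs and are not independent of them. None of the 9 genes was called, beside 0.0446% of all genes, and 2, Srsf10 and Srsf2, had an unadjusted p under 0.05. Srsf10 lay 0.35 lower on the log2 scale in EV libraries, with a log2 fold change of -0.35 (SE 0.0877, adjusted p = 0.174). The mean was 36.9 ± 3.75 CPM (SD, n = 3) in EV, 42.4 ± 1.3 in vehicle and 46.9 ± 0.536 in WT libraries, and no library of one group reached into the next. The range over 20 alternatives was -0.4 to -0.23, and DESeq2 called Srsf10 in this comparison (adjusted p = 0.0244, against 0.056 without WT replicate 3 and 0.0983 or more in the other 18). Srsf2 lay at 23.6, 28.5 and 25 CPM in WT replicates 1, 3 and 6, below all EV libraries, with a log2 fold change of 0.26 (SE 0.101, adjusted p = 0.255). Without WT replicate 3, its highest WT library, Srsf2 passed the threshold (adjusted p = 0.0495).

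Srsf4 was the third gene of 9 whose groups did not overlap between EV and WT, beside 16.5% of all genes. It had 10.6, 9.68 and 10.3 CPM in WT and 8.68, 7.87 and 9.65 CPM in EV libraries, with a log2 fold change of -0.22 (SE 0.12, adjusted p = 0.369). The other 6 genes lay between -0.23, for Srsf11, and 0.13, for Srsf6. The median of the 9 was -0.04, beside -0.01 over all genes. Srsf5 and Srsf6 again moved without WT replicate 6, to 0.33 and 0.3 (adjusted p = 0.236 for both), and Srsf11 moved to 0.03.

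**Figure D3:**
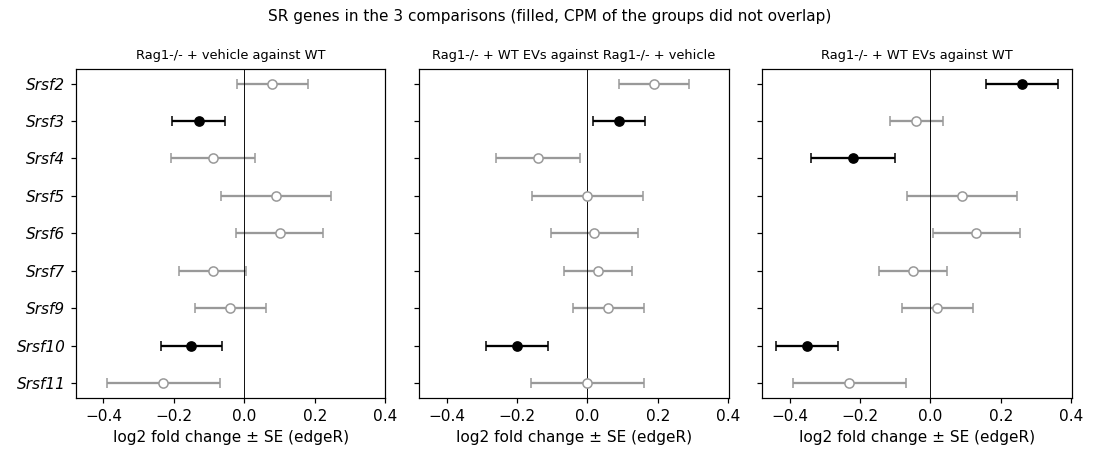
Log2 fold change and SE (x axis, edgeR) of 9 SR genes in the 3 comparisons. Filled points mark genes whose CPM did not overlap between the groups: Srsf3 and Srsf10 in the first and second comparison, and Srsf2, Srsf4 and Srsf10 in the third. No gene passed an adjusted p of 0.05.

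The summed level of the family was steady apart from 1 library. It was 362, 372 and 439 CPM in WT replicates 1, 3 and 6, 361, 380 and 390 CPM in vehicle and 389, 370 and 385 CPM in EV libraries. WT replicate 6 was the highest, and the other 8 libraries spanned 361 to 390 CPM. Srsf10 took 13.1, 12.6 and 10.6% of the family's reads in WT, 12.2, 10.9 and 10.7% in vehicle and 9.68, 10.8 and 8.51% in EV libraries. By this share each pair of groups overlapped, through WT replicate 6 and, between vehicle and EV libraries, through EV replicate 3.

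WT replicate 6 did not differ from the other libraries evenly over the genes. Against the median of the other 8 libraries its CPM was 1.53 times as high for Srsf11, 1.27 for Srsf5 and 1.16 for Srsf6. For these and for Srsf7, at 55.3 against a median of 48 CPM, it was the highest of the 9 libraries. It was 1.03 times the median for Srsf3, 1.07 for Srsf9, 1.08 for Srsf4, 1.11 for Srsf10 and 0.87 for Srsf2. Most of the other 8 libraries are Rag1-/-, so differences between groups enter these ratios. Among the WT libraries replicate 6 was the lowest for Srsf10 (46.4 against 47.5 and 46.9 CPM) and Srsf3 (78 against 78.8 and 83.5 CPM). For Srsf2 its 25 CPM lay between the 23.6 and 28.5 CPM of the other WT libraries. Srsf3 and Srsf11 have nearly the same share of exonic bases found only in retained-intron transcripts, 59.2% and 58%, and stood at 1.03 and 1.53. These are shares of annotated length and not of reads, and the cause of the higher Srsf11 value was not tested. 

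The slope of each gene on the share of reads outside exons, as log2 change per doubling of the share over all 9 libraries, was called for 1 of 9 SR genes, beside 35.2% of all genes. Srsf11 rose by 0.29 per doubling (SE 0.0578, adjusted p = 0.00173). The slopes of the other 8 lay between -0.06, for Srsf2, and 0.15, for Srsf5. Without WT replicate 6 the slope of Srsf11 was 0.04 (SE 0.129, adjusted p = 0.872), and 0 of 9 SR genes were called, beside 15.9% of all genes, with none at an unadjusted p under 0.05. The call of Srsf11 thus rested on 1 library.

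With group terms beside the share, 3 of 9 SR genes were called, beside 23.2% of all genes. These were Srsf11 at 0.37 (adjusted p = 0.00283), Srsf5 at 0.36 (SE 0.065, adjusted p = 0.00258) and Srsf6 at 0.23 (SE 0.0678, adjusted p = 0.0292). The same fit without WT replicate 6, added after the values were seen, gave 0.14, 0.26 and -0.1 for these genes and called 0 of 9 SR genes, with 0% of all genes called. Srsf10 had slopes of 0.05, -0.13, -0.05 and -0.31 in these 4 fits, the last with an adjusted p of 0.602. Within the EV group its lowest level, 32.8 CPM, was in replicate 5, which had the highest share of that group, 11.7%. In WT, replicate 1 had 47.5 CPM at a share of 11.3% and replicate 6 had 46.4 CPM at 31.1%. A link of Srsf10 to the share within groups was not tested apart from these fits.

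**Figure D4:**
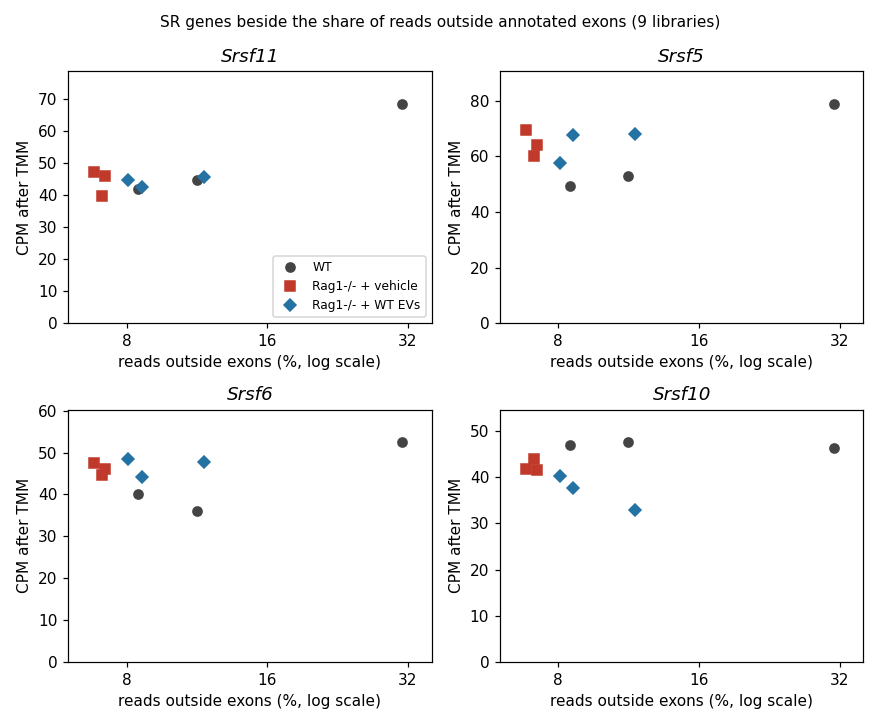
CPM of Srsf11, Srsf5, Srsf6 and Srsf10 (y axis, from 0) against the share of reads outside exons in percent (x axis, log scale) in 9 libraries. WT replicate 6 lies alone at 31.1% and is the highest point for Srsf11, Srsf5 and Srsf6, while the other 8 libraries lie between 6.82 and 11.7%.

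The genes that act on SR proteins or beside them were taken from lists chosen by role, with earlier results of these data known. In Rag1-/- + vehicle against WT, 28 of 134 tested genes of 7 such lists were called, beside 6.28% of all genes called higher and 9.71% called lower. These calls, like those over all genes, depended on single libraries. Without WT replicate 6 there were 17, beside 8.21% of all genes, without WT replicate 3 there were 66, and without WT replicate 1 or any 1 of the 3 vehicle libraries there were 0. Without vehicle replicate 2 or 3 no gene of all was called either, so those zeros are not particular to the lists. The shares of all genes in the other fits with a library left out are not given here.

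None of the 10 genes for SR kinases and their importer was called by edgeR in this comparison. Clk1, Clk4, Srpk2 and Prpf4b, 4 of the 10, had an unadjusted p under 0.05, and DESeq2 called these 4. Clk4, a nuclear kinase that phosphorylates SR proteins, had 20.6, 16.8 and 35.1 CPM in WT replicates 1, 3 and 6 and 13.2, 17.4 and 12 CPM in vehicle libraries. Its log2 fold change was -0.77 (SE 0.245, adjusted p = 0.054), and -0.39 (adjusted p = 0.142) without WT replicate 6. Clk1, its close relative, had 39.6, 22.9 and 51.7 CPM in WT and 21.1, 28.2 and 18.9 CPM in vehicle libraries, at -0.75 (SE 0.267, adjusted p = 0.0733) and -0.46 (adjusted p = 0.208) without WT replicate 6. Both kinases overlapped between the groups through WT replicate 3 and vehicle replicate 2. Srpk3, a kinase best known from muscle, had 0.816 to 3.14 CPM in WT and at most 0.908 CPM in vehicle libraries, at -0.96 (adjusted p = 0.142) and -0.18 (adjusted p = 0.735) without WT replicate 6. Clk3 had -0.24 (adjusted p = 0.25) and -0.03 (adjusted p = 0.883) without it. The remaining 6 had small positive values: Clk2 0.23, Prpf4b 0.23 (adjusted p = 0.0846), Srpk2 0.22 (adjusted p = 0.102), Dyrk1a 0.14, the importer gene Tnpo3 0.14 and Srpk1, the cytoplasmic kinase of the family, 0.08. In Rag1-/- + WT EVs against vehicle edgeR called none of the 10 either, while 5 (Srpk1, Srpk2, Dyrk1a, Prpf4b and Tnpo3) had an unadjusted p under 0.05, and DESeq2 called these 5 lower. Tnpo3 at -0.26 (adjusted p = 0.096) and Dyrk1a at -0.24 (adjusted p = 0.0981) came closest. With WT replicate 6 left out, edgeR called 6 of the 10, these 5 lower and Clk4 higher. DESeq2 called more of all genes than edgeR in both comparisons, with the counts given in the closing section. The share of all genes called between EV and vehicle libraries without WT replicate 6 is not given here. The kinase counts of these fits are therefore not read as a result about the kinases.

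The kinases divided by their slope on the share of reads outside exons. Clk1 rose by 0.6 per doubling (SE 0.107, adjusted p = 0.000864), Clk4 by 0.59 (SE 0.0868, adjusted p = 0.000201), Srpk3 by 0.8 (adjusted p = 0.00114) and Clk3 by 0.27 (adjusted p = 0.00179). These 4 of 10 stand beside 19.1% of all genes called with a rising and 16.1% with a falling slope. Without WT replicate 6 Clk1 had 1.1 (adjusted p = 0.0132) and Clk4 0.82 (adjusted p = 0.028), and both remained called, while Srpk3 at 0.75 (adjusted p = 0.257) and Clk3 at 0.23 (adjusted p = 0.272) were not. In the EV group both Clk1 and Clk4 were lowest in replicate 3, the library of that group with the smallest share. Over all groups the vehicle libraries had the smallest shares. Without WT replicate 6, slopes fitted without group terms thus cannot be told apart from a difference of the vehicle group. With group terms and without WT replicate 6 none of the 10 was called, with 0% of all genes called.

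Other proteins with an RS domain had 3 of 30 genes called higher and none lower in Rag1-/- + vehicle against WT, with a median log2 fold change of 0.09, beside 6.28% of all genes called higher. Bclaf1, a nuclear protein of mRNA processing complexes, rose by 0.37 (SE 0.0855, adjusted p = 0.027). Pnn, a component of the exon junction periphery, rose by 0.28 (adjusted p = 0.0445) and Thrap3, a partner of Bclaf1, by 0.3 (adjusted p = 0.0489). Bclaf1 was also called without WT replicate 6 and Pnn and Thrap3 were not, while Srrm4, Rsrc2 and Rbm25 were. Srrm4, the neuronal microexon factor, had 40.1, 34.7 and 42.7 CPM in WT, 47, 56.7 and 43.8 CPM in vehicle and 31.7, 33.7 and 34.5 CPM in EV libraries. Every EV library lay below every other library. In Rag1-/- + WT EVs against vehicle Srrm4 fell by 0.56 on the log2 scale (SE 0.113, adjusted p = 0.0319). Luc7l, a factor of 5′ splice site recognition, fell by 0.41 (SE 0.099, adjusted p = 0.0497). They were the only genes of the 7 lists that edgeR called in that comparison, beside 1.24% of all genes called lower. Neither was called when WT replicate 1 or any 1 of the vehicle or EV libraries was left out. Other fits called more list genes, 41 of 134 without WT replicate 6 (6 higher and 35 lower), 46 on the 6 libraries compared and 31 with DESeq2, and Srrm4 and Luc7l were among them in all 3. DESeq2 and the fit on the 6 libraries also called more of all genes than the 613 of the fit reported, as given in the closing section. The share of all genes without WT replicate 6 is not given here. These counts alone are therefore not read as a result about the lists. Srsf11, which acts with Srrm4, had a log2 fold change of 0 there (adjusted p = 0.997).

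The hnRNP proteins, which often oppose SR proteins at exons, had 7 of 23 genes called higher and none lower in Rag1-/- + vehicle against WT, with a median of 0.23. This count stands beside 6.28% of all genes called higher and 9.71% called lower. Without WT replicate 6 there were 5, and the share of all genes in that fit is given above with the totals of the lists. Hnrnpab had 21.3, 27.4 and 17.4 CPM in WT and 30.4, 37.8 and 39.9 CPM in vehicle libraries, a log2 fold change of 0.71 (SE 0.169, adjusted p = 0.0281). Hnrnph2, a G-run binding protein, rose by 0.52 (adjusted p = 0.0271), Hnrnpa2b1, which also takes part in RNA transport, by 0.43 (adjusted p = 0.0208) and Hnrnpm by 0.37 (adjusted p = 0.0307).

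Core spliceosome genes had 5 of 31 called higher and 2 lower, with a median of 0.24. This stands beside 6.28% of all genes called higher and 9.71% called lower. Sf3a2, a subunit of the U2 particle, had 7.89, 11.4 and 7.46 CPM in WT and 15.6, 17.6 and 16.2 CPM in vehicle libraries, a log2 fold change of 0.88 (SE 0.156, adjusted p = 0.0189). Snrpa, the U1 A protein, rose by 0.58 (adjusted p = 0.0271) and the helicase gene Ddx46 by 0.34 (adjusted p = 0.0251). Sf3b6, the branch-site binding subunit of SF3b, fell by 0.48 on the log2 scale (SE 0.101, adjusted p = 0.0245). Without WT replicate 6 there were 3 higher and 1 lower, and the share of all genes in that fit is given above with the totals of the lists.

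Exon junction and nonsense-mediated decay genes had 3 of 15 called higher and none lower, beside 6.28% of all genes called higher, with a median of 0.25. The 3 called were Smg9 at 0.45 (adjusted p = 0.0263), Upf3a at 0.43 (adjusted p = 0.029) and Upf3b at 0.4 (adjusted p = 0.039). All are parts of the decay of transcripts with early stop codons. Upf3b was not called without WT replicate 6. Neuronal splicing regulators had 2 of 19 higher and 1 lower, with a median of 0.19, so 3 of 19 were called beside 16% of all genes. Elavl4 rose by 0.44 (adjusted p = 0.03) and Elavl2 by 0.31 (adjusted p = 0.0391), both neuronal RNA-binding proteins of the Hu family, and Khdrbs2 fell by 0.61 on the log2 scale (SE 0.184, adjusted p = 0.047). Of these 19 genes only Elavl4 was called without WT replicate 6. Summed neuron markers were higher in the vehicle libraries than in all others, as given above, and their part in these values was not tested. None of the 134 list genes was called by edgeR in Rag1-/- + WT EVs against WT in the fit reported, and DESeq2 called 2, Rbfox2 and Elavl3. Without WT replicate 3 edgeR called 8 (6 higher and 2 lower), and with no filter it called 5 nuclear-retained RNAs lower. These alternatives also called more of all genes, as given in the closing section.

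Long RNAs that stay in the nucleus had 5 of 6 genes called lower in Rag1-/- + vehicle against WT, with a median of -1.9. This stands beside 9.71% of all genes called lower. Without WT replicate 6 only Mirg was called, and the median was -0.8. Malat1, a nuclear speckle RNA that binds SR proteins, had 1593, 944 and 5336 CPM in WT replicates 1, 3 and 6 and 646, 433 and 958 CPM in vehicle libraries. Vehicle replicate 3 lay above WT replicate 3, so the groups overlapped. All 6 genes rose with the share of reads outside exons, by a median of 1.39 per doubling, beside 19.1% of all genes called with a rising slope. Without WT replicate 6 the median was 1.59 and all 6 were again called, beside 15.9% of all genes called in either direction. Over the same libraries the SR genes had median slopes of 0.08 and 0.04, and the core spliceosome genes had 18 of 31 called with a falling slope and 1 with a rising one, with a median of -0.21, beside 16.1% of all genes with a falling slope. These were 12 and 1, with a median of -0.38, without WT replicate 6. The share of reads outside exons was 6.82 to 7.2% in vehicle libraries and 8.06% or more in all others. Without WT replicate 6, slopes fitted without group terms thus cannot be told apart from a difference of the vehicle group. With group terms and without WT replicate 6, 0 of the 134 list genes were called, with 0% of all genes called.

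**Figure D5:**
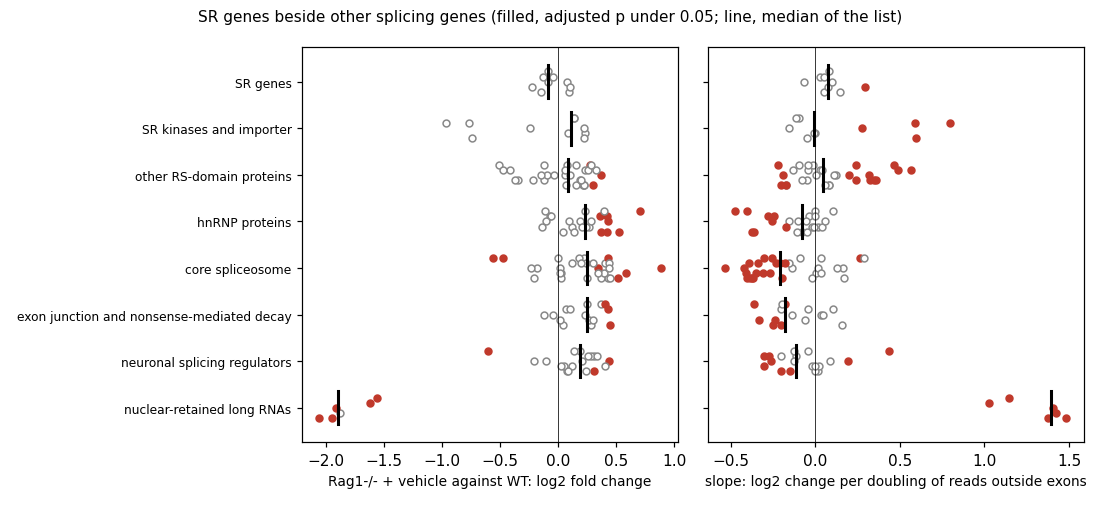
Log2 fold change in Rag1-/- + vehicle against WT (left x axis) and log2 change per doubling of the share of reads outside exons (right x axis) for SR genes and 7 lists of splicing-related genes (rows). Each point is a gene, filled red at an adjusted p under 0.05, and the line is the median of the list. The SR genes lie between -0.23 and 0.1 on the left with no filled point, and nuclear-retained RNAs have a median of -1.9 on the left and 1.39 on the right.

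The SR genes did not share a common pattern over the 9 libraries. Pearson correlations between pairs of them ran from -0.84 (Srsf2 and Srsf10) to 0.8 (Srsf5 and Srsf6). Genes most like their mean were sought among 10620 protein-coding genes averaging at least 5 CPM. The measure was the Pearson correlation of log2 CPM with the mean log2 CPM of the 9 SR genes over 9 libraries. The highest was Rnf20, a ubiquitin ligase gene that acts on histone H2B, at 0.977 over 9 libraries and 0.954 without WT replicate 6. Rnf20 had 60.9 CPM in WT replicate 6 and 49.5 to 54.9 CPM in the other libraries. It was followed by Ndufab1, Brf1, Taz, Zscan12, Cstf3, Donson and Wiz at 0.94 to 0.948, which fell to between 0.705 and 0.907 without WT replicate 6. Among the least alike were Tpp1, Aco1 and Npnt at -0.967 to -0.958. These are descriptions over libraries that share WT replicate 6 as their extreme point.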

How the data were processed

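Total RNA from frozen PFC of mice perfused with saline was sequenced from directional libraries as 75 bp pairs. The authors aligned reads with STAR (2.7.5c) to GRCm38 and counted them over exons with HTSeq (0.11.1 in the submitters' processing notes, after bcl2fastq 2.18.0.12) keeping alignments of quality 10 or more and ignoring strand, so reads of overlapping antisense genes cannot be told apart. The deposited values are raw counts per gene. Reads outside exons and ambiguous reads (3.1 to 4.31%) were kept out of library sizes. Of 56246 identifiers 55230 (98.19%) matched GENCODE M21, which gave names, lengths and sequences.

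One edgeR model (version 4.0.16 under R 4.3.3) held all 9 libraries. Genes were kept by filterByExpr at a count of 10 and a total of 15, scaled by TMM and tested by 2-sided quasi-likelihood, with Benjamini-Hochberg adjustment over 17948 genes. The SE is the log2 fold change divided by the square root of F. The slope fit replaced the group by the log2 share of reads outside exons. The fit of the 3 comparisons and the slope fit without group terms were tested on simulated data. Those data held no outlying library such as WT replicate 6, and the alternatives below were not simulated. RPKM used TMM-scaled library sizes. Likeness used log2 CPM with a pseudocount of 0.5. Alternatives were DESeq2 1.42.0, limma-voom (3.58.1), the 6 libraries compared, scaling by upper quartiles or by DESeq2's size factors, filtering at 1 CPM in 3 libraries or not at all, a replicate block, GC and length offsets, both together, the share as a covariate, group terms beside the share, and each library left out. Coding-transcript length, the group-term slope without WT replicate 6 and the lists with each other library left out were added after seeing the data. Genes named were all SR genes and kinases, the 4 (Rag1-/- + vehicle against WT) and 2 (WT EVs against vehicle) smallest p of each other list, of which those called or closest are given, the 8 most and 4 least alike genes, 1 of which is not reported here, and Rag1. The SR genes and all lists were chosen with earlier results of these data known. The SR genes with reads had 3088 to 24981 reads over the 9 libraries, and Srsf4, the lowest, had 257 to 399 per library. The part of counting error in the SE was not tested. Figures were drawn with matplotlib 3.10.9.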

Additional observations from a re-analysis of the deposited data

How the results depend on the processing

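The count of SR genes called stayed at 0 in Rag1-/- + vehicle against WT and in Rag1-/- + WT EVs against vehicle under every alternative run. In Rag1-/- + WT EVs against WT it was 1 with DESeq2 (Srsf10), and 0 to 1 with single libraries left out (1 without WT replicate 3, Srsf2). For the slope, 1 gene in the fit reported, it was 2 with upper-quartile factors (Srsf7 and Srsf11), 3 with group terms and 0 with group terms without WT replicate 6, and 0 to 1 with single libraries left out. The 28 list genes called in Rag1-/- + vehicle against WT became 54 with DESeq2, 2 with the share as a covariate, and 0 to 66 with single libraries left out. In that comparison 2871 genes of all were called, against 4457 with DESeq2, 109 with the covariate and 0 without vehicle replicate 2 or 3 or on the 6 libraries compared. In Rag1-/- + WT EVs against vehicle 613 genes of all were called, against 2169 with DESeq2, 3289 on the 6 libraries compared and 0 without vehicle replicate 2 or 3 or EV replicate 2 or 5. In Rag1-/- + WT EVs against WT 8 were called, against 410 with DESeq2, 668 with no filter and 1537 without WT replicate 3. The cause of these differences was not tested.

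Replicate numbers did not pair the libraries: libraries sharing a number had correlations of -0.0454 to 0.101, with at most 2 shared numbers per comparison. With a replicate block the slope called 0 SR genes, as with the block and GC and length offsets (0), where WT replicate 6 is alone in its block. The counts in the 3 comparisons stayed at 0 with the block, while calls among all genes in Rag1-/- + vehicle against WT went to 712.

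With the exons of protein-coding transcripts as length, levels were 38.3 RPKM for Srsf5, 29.4 for Srsf3, 18.9 for Srsf9, 18.7 for Srsf7, 14 for Srsf11, 13.9 for Srsf2, 12.3 for Srsf6, 7.21 for Srsf10 and 4.21 for Srsf4. They rose by construction, since the length was shorter. Bases shared with other genes were not taken out, so the places of Srsf4 and Srsf2 stay uncertain.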
